A study of Mus musculus with 6 samples.

Results

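The enzymes that build and break down glycogen were followed in 6 RNA-seq libraries of gastrocnemius, a mixed hind-limb muscle, from male C57BL/6 mice. The 9 genes were taken by symbol from a table of 24054 genes, and all 9 were found and all 9 passed the filter on low counts. They encode the primer protein (Gyg), glycogen synthase (Gys1), the branching enzyme (Gbe1), the muscle, brain and liver phosphorylases (Pygm, Pygb and Pygl), and the alpha, beta and gamma subunits of phosphorylase kinase (Phka1, Phkb and Phkg1).

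The 3 MI4KO mice carried Irf4 flox/flox together with Myl1-Cre, and the 3 MI4OE mice carried Myl1-Cre together with an Irf4 transgene at Rosa26 that is silent until Cre removes a stop cassette. Cre from Myl1, a gene of fast muscle fibres, was thus present in both groups. IRF4 is a transcription factor best known from immune cells and fat. Wild-type and flox gastrocnemius were not analysed here, and loss of IRF4 is set against its excess throughout. The labels give a high fat diet for every library, whereas the study describes chow, and they give no age. Nothing in the labels pairs the libraries or names a batch, and replicate numbers only name them. The groups were therefore compared as unpaired libraries. A p-value of such a comparison sets the group difference against the spread between these libraries and does not measure that spread.

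Libraries held between 18828605 and 29239585 expected counts, the estimated reads per gene. A floor of 3 counts corresponded to between 0.101 and 0.148 CPM, counts scaled to library size. The counts of Irf4 were 6, 0 and 2 in MI4KO but 2864, 10557 and 5911 in MI4OE, the direction the labels give. MI4OE replicate 1 stood apart from the other libraries in its fibre-type genes. The summed CPM of 10 slow-fibre genes was 7387 there, against 55.3 and 712 in the other MI4OE libraries and 41.5, 144 and 120 in MI4KO. The summed CPM of 10 fast-fibre genes was 150742 in that library and between 223687 and 298251 in the other 5. Genes of 4 other cell types were also apart between the groups, with sums of 86.8 to 149 CPM in MI4KO and 169 to 295 CPM in MI4OE for 6 endothelial genes, 204 to 309 CPM and 358 to 484 CPM for 6 fibroblast genes, 127 to 136 CPM and 168 to 268 CPM for 6 smooth muscle genes, and, in the other direction, 56.2 to 568 CPM and 6.25 to 34.8 CPM for 6 adipocyte genes. The sums of the hepatocyte, neutrophil, macrophage, erythrocyte, Schwann cell and satellite cell lists overlapped between the groups. Some single genes of the endothelial, smooth muscle and adipocyte lists overlapped too. Among all genes tested, the groups did not overlap in CPM for 12.9%. No tested gene of these lists had an adjusted p under 0.05 in edgeR. The part of any of these cells in the members' values was not tested.

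Glycogen is a branched glucose polymer that muscle holds as fuel for contraction. Glycogenin lays down a short glucose chain on itself, glycogen synthase lengthens it from UDP-glucose, and the branching enzyme adds branch points. Glycogen phosphorylase removes glucose units from chain ends as glucose-1-phosphate, and phosphorylase kinase, a complex of several subunits that responds to calcium and to adrenaline signalling, switches the phosphorylase on. Fast fibres, which make up most of the mouse gastrocnemius, are known for high glycolytic capacity.

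These 3 stretches of sequence bear on the members described here. The first is the exon by which the 2 Phka1 transcripts differ. It is shown because MI4OE replicate 1 was the only library where the transcript with the exon was the less abundant. It is exon 19 of the 33 exons of NM_008832 and is absent from NM_173021. It lies at chrX:102557096-102557272 on the minus strand of GRCm38 (GENCODE M21), has 177 bases, is coding, and keeps the reading frame with 59 codons. It is printed 5′ to 3′ with the exon in capitals and 10 bases of the neighbouring exons on each side in lower case.

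Phka1 exon 19: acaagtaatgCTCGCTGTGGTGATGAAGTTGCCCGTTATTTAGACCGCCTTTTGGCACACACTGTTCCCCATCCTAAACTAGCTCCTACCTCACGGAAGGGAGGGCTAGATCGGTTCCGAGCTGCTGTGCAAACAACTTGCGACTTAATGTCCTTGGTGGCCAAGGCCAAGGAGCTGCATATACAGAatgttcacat

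The other stretches are the 250 bases before the gene start of Pygm, whose level differed widely between libraries, and of Gys1, whose CPM was nearly even. They are RefSeq sequences of GRCm38.p6, on the plus strand at chr19:6384158-6384407 for Pygm and at chr7:45434589-45434838 for Gys1. Capitals mark the E-box CAGCTG, a binding motif of myogenic factors.

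Pygm upstream: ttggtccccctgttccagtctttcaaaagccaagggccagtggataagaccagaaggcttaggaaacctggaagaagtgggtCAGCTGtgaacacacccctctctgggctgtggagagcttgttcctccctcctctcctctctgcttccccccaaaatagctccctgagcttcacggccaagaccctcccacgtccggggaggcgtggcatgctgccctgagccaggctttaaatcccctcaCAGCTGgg
Gys1 upstream: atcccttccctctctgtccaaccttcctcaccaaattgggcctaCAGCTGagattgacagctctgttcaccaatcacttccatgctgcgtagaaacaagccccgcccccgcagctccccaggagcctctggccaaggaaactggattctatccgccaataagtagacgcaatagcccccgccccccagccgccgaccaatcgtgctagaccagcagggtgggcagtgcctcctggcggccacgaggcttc

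Promoter windows from 250 bases before to 50 bases after the gene start were found for all 9 members. They were searched on both strands for CAGCTG, for the E-box CACCTG, and for GAAA followed by any 2 bases and GAAA again, the core of the interferon-stimulated response element that IRF factors bind. No member window held that core, which was present in 3.44% of 32851 RefSeq windows. CAGCTG was in the windows of Gys1, Phkb, Pygm and Phka1, against 16.3% of all windows. CACCTG was in those of Gyg, Phkg1 and Gbe1, against 20.2%. The windows of Pygb and Pygl held none of the 3 motifs. A match says only that these letters occur in the window.

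Per unit of transcript length (TPM, length-adjusted abundance scaled to the library), the muscle phosphorylase gene exceeded the other members in every library. Pygm read 6295, 7453 and 5666 TPM across the MI4KO libraries and 2863, 6834 and 5677 across the MI4OE ones, and it ranked 20th among all genes by mean TPM. It made up between 78.4% and 83.7% of the summed TPM of the 9 members. The means of the others over 6 libraries were 369 TPM for Gyg, 333 TPM for Phkg1, 216 TPM for Phka1, 179 TPM for Gys1, 130 TPM for Phkb, 13.6 TPM for Gbe1, 1.99 TPM for Pygb and 1.68 TPM for Pygl. The ranges of neighbours in this order did not overlap for Pygm and Gyg, for Phkb and Gbe1, and for Gbe1 and Pygb. The other neighbours overlapped, although Phkg1 was above Phka1, and Gys1 above Phkb, in 6 of 6 libraries.

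**Figure D1:**
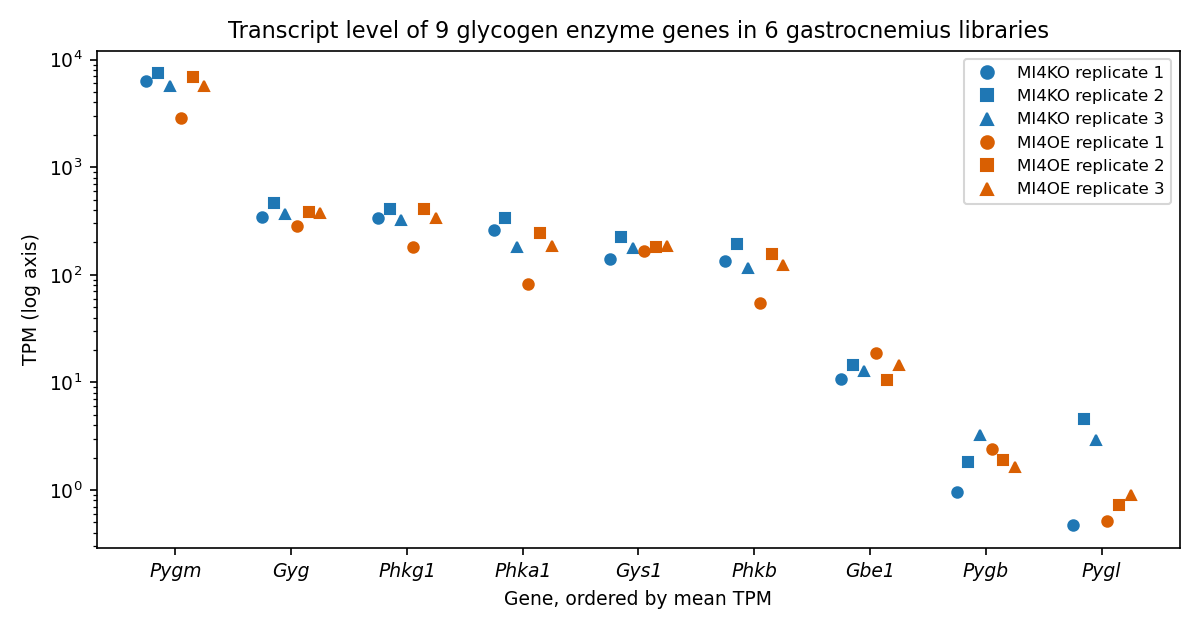
TPM on a log axis of the 9 genes, ordered by mean TPM, with 1 point for each library (blue MI4KO, orange MI4OE, symbol for the replicate). Pygm lies above the other 8 genes in each library, Pygb and Pygl lie lowest by mean, and MI4OE replicate 1 is the lowest point for Pygm and the phosphorylase kinase genes.

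None of the 9 genes differed between MI4OE and MI4KO at an adjusted p under 0.05 by edgeR's quasi-likelihood test, where 3 of 12660 genes tested, or 0.0237%, did. One member, Pygl, met the study's criterion (at least 1.5-fold, with p under 0.05 before adjustment), which 6.65% of genes met. It was also the single member with an unadjusted p under 0.05, which 7.58% of genes had. The fitted log2 fold change was below 0 for 8 members and above 0 for Gbe1, and below 0 for 50% of all genes. The directions of Gys1 and Pygb turned when libraries were scaled by total counts. The median log2 fold change of the members was -0.28, against -0.00 over all genes tested. The groups did not overlap in CPM for 1 member, Gyg, against 12.9% of genes, or 5.48% in that direction. With 3 libraries per group, the 95% intervals of the differences were wide, and a log2 fold change of -1 lay inside those of Pygm, Pygl, Phka1 and Phkb.

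**Figure D2:**
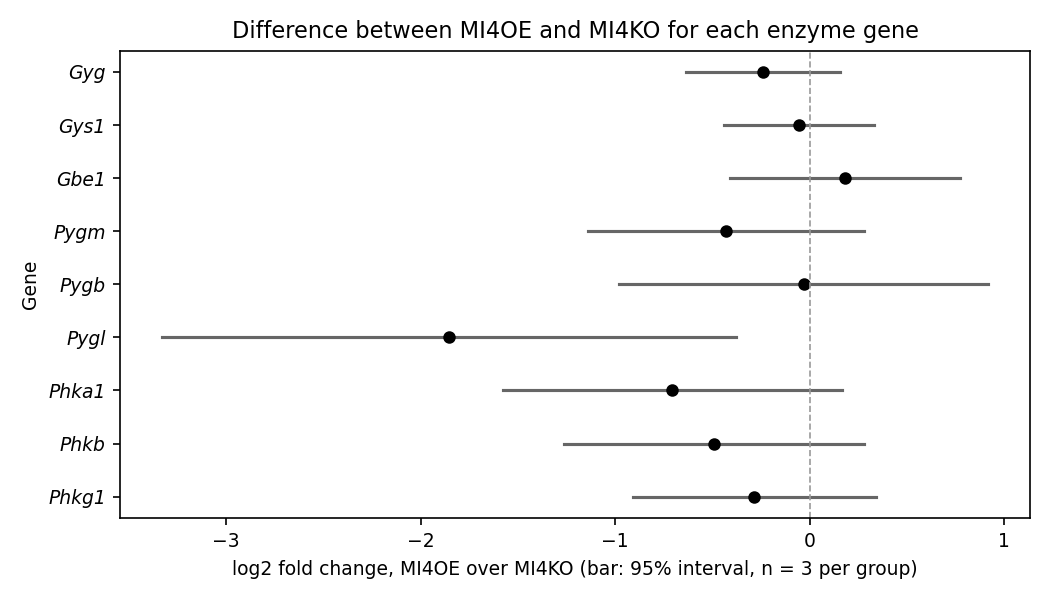
Log2 fold change of MI4OE over MI4KO for each member (point) with its 95% interval (bar), from edgeR's quasi-likelihood fit with 3 libraries per group. Only the interval of Pygl, from -3.33 to -0.38, excludes 0, and the interval of Gys1, from -0.44 to 0.33, is the narrowest.

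None of the 3 synthesis genes passed the test, and their fitted log2 fold changes lay between -0.24 and 0.18. Gyg, which encodes glycogenin, read 427, 410 and 376 CPM across the MI4KO libraries and 308, 357 and 363 across the MI4OE ones. Every MI4OE library was below every MI4KO library in CPM, but the groups overlapped in TPM, at 347, 462 and 366 against 281, 383 and 377, and in counts over library totals. The means were 404 ± 25.7 CPM (SD, n = 3) and 343 ± 30.2 CPM (SD, n = 3). The log2 fold change was -0.24 ± 0.17 (SE), and its 95% interval ran from -0.64 to 0.16. The quasi-likelihood test of edgeR gave it an adjusted p of 0.817.

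Gys1, the muscle glycogen synthase, read 381, 440 and 401 CPM across the MI4KO libraries and 408, 376 and 394 across the MI4OE ones. These values overlapped, and the highest was 1.17-fold the lowest. The range was 1.60-fold in TPM and 1.38-fold in counts over library totals. Among 6405 tested genes with a mean of at least 10 CPM, the fold in CPM had a median of 1.60, and 4.04% of genes had a smaller one than Gys1. The log2 fold change was -0.05 ± 0.17 (SE), and the bounds of its 95% interval were 0.738 and 1.26 as folds. The value was 0.03 with total counts. Gys1 did not follow the low value of MI4OE replicate 1 seen for Pygm: it was there at 105.8% of the mean of the other MI4OE libraries.

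Gbe1, the branching enzyme, was at 23.6, 23.1 and 23.3 CPM in MI4KO, nearly the same value in each library. In MI4OE it was at 36.7, 17.8 and 25.1 CPM, on both sides of the MI4KO values. Its log2 fold change was 0.18 ± 0.25 (SE). Without MI4OE replicate 1, the library with the highest value, it was -0.13.

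Gys2, the glycogen synthase gene of liver, was close to the floor of detection. Gys2 had 0.205, 1.03 and 0.336 CPM in MI4KO and 0.049, 0 and 0.132 CPM in MI4OE, where a count of 0 allows up to 0.105 CPM in replicate 2. These values did not overlap, but Gys2 did not pass the filter on low counts and was not tested. Gys1 made up between 99.7% and 100% of the TPM of both genes, and its share was higher in each MI4OE library than in each MI4KO library (exact permutation test, two-sided p = 0.1, adjusted p = 0.60). An exact p of 0.1 is the smallest that 3 against 3 libraries allow, so no share could pass the threshold.

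The phosphorylase genes fell into 1 abundant and 2 scarce members. Pygm read 13161, 11246 and 9906 CPM across the MI4KO libraries and 5333, 10842 and 9289 across the MI4OE ones. It took between 0.576% and 1.16% of all counts of a library. One MI4OE library stood below the rest, and the other two lay within or just under the MI4KO range. The means were 11438 ± 1636 CPM (SD, n = 3) and 8488 ± 2841 CPM (SD, n = 3). The log2 fold change was -0.43 ± 0.30 (SE), and its 95% interval ran from -1.14 to 0.28. The quasi-likelihood test of edgeR gave an adjusted p of 0.815. The difference became, on the log2 scale, -0.19 without MI4OE replicate 1 and -0.65 without MI4OE replicate 2.

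Pygb, the brain isozyme, read 2.70, 3.76 and 7.66 CPM across the MI4KO libraries and 6.15, 4.09 and 3.67 across the MI4OE ones. The groups overlapped fully, with a log2 fold change of -0.03 ± 0.41 (SE). Its level is uncertain, because RSEM divides a read that matches several transcripts. The fractional counts of Pygb and Pygm added up to whole numbers in each library, within 0.01 of a count, as they do where genes share reads, and Pygm was the far more abundant. The log2 fold change of Pygb was 0.04 with total counts, and it ran from -0.31 to 0.50 over fits without each library in turn.

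Pygl, the liver isozyme, had 24, 171 and 151 counts in MI4KO and 19, 33 and 33 counts in MI4OE. In CPM this was 0.983, 6.78 and 5.07 against 0.935, 1.15 and 1.46. MI4KO replicates 2 and 3 were high, and MI4KO replicate 1 lay among the MI4OE libraries. Pygl was 3.62-fold lower in MI4OE, with a log2 fold change of -1.86 ± 0.63 (SE) and a 95% interval from -3.33 to -0.38. In edgeR the p of 0.0203 became 0.550 once adjusted over all genes. Leaving out MI4KO replicate 1 moved the log2 fold change to -2.33, and leaving out MI4KO replicate 2 moved it to -1.37. The study's criterion was not met in the latter case, nor when MI4OE replicate 1 was left out, where the value was -1.72. It was not met by limma either, with -1.33 on log2(TPM + 0.1) and -0.90 on log2(TPM + 1), a scale that understates changes of scarce genes.

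The levels of adipocyte genes are given beside Pygl. The summed CPM of 6 adipocyte genes was 56.2, 134 and 568 in MI4KO and 6.25, 34.8 and 9.76 in MI4OE, and 6 of 6 had a log2 fold change below 0, where 50% of all genes did. None of the 6 had an adjusted p under 0.05 in edgeR. Adipoq, which encodes the fat-cell hormone adiponectin, read 9.58, 17.7 and 81.4 CPM across the MI4KO libraries and 0.886, 5.94 and 1.37 across the MI4OE ones. Adipoq and Pygl were both higher in MI4KO replicates 2 and 3 than in the MI4OE libraries. In MI4KO replicate 1, however, Adipoq, at 9.58 CPM, was above every MI4OE library, whereas Pygl, at 0.983 CPM, lay among them. Adipoq was highest in MI4KO replicate 3 and Pygl in MI4KO replicate 2. The summed CPM of 6 hepatocyte genes was 1.51, 3.61 and 46.6 in MI4KO and 3.30, 0.315 and 0.088 in MI4OE. Genes of neutrophils were near 0, with sums between 0.158 and 2.05 CPM and Camp at 0 in each library. The part of fat or of other cells in the Pygl values was not tested, and in whole muscle fewer cells of a type cannot be told apart from less RNA per cell.

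The order of the isozymes within a library was tested on TPM, which is per length. Pygm exceeded Pygb by between 1183-fold and 6627-fold, in 6 of 6 libraries (exact two-sided sign-flip permutation test, p = 0.0312, the smallest this design allows, adjusted p = 0.0469 over 3 pairs). Pygm exceeded Pygl by between 1645-fold and 13394-fold, in 6 of 6 libraries, with the same exact permutation p and adjusted p. Pygb exceeded Pygl in 5 of 6 libraries, at ratios from 0.404 to 4.75 (exact permutation p = 0.219, adjusted p = 0.219). The exception was MI4KO replicate 2, where Pygl was at 4.53 TPM and Pygb at 1.83 TPM. Pygm made up between 99.89% and 99.98% of the summed isozyme TPM in each library. Its mean share was 99.93% in MI4KO and 99.94% in MI4OE (exact permutation p = 0.9, adjusted p = 0.90), again with no p below 0.1 possible.

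The 3 phosphorylase kinase genes had the same low library as Pygm. Phka1, the regulatory alpha subunit of muscle, read 1182, 1123 and 694 CPM across the MI4KO libraries and 329, 855 and 656 across the MI4OE ones. MI4OE replicate 1 was at 43.6% of the mean of the other MI4OE libraries, and MI4OE replicate 2 lay within the MI4KO range. The log2 fold change was -0.70 ± 0.37 (SE), and its 95% interval ran from -1.58 to 0.17. The quasi-likelihood test of edgeR gave an adjusted p of 0.729. The difference became, on the log2 scale, -0.41 without MI4OE replicate 1 and -1.02 without MI4OE replicate 2, where Phka1 met the study's criterion.

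Phkb, the regulatory beta subunit, read 463, 480 and 336 CPM across the MI4KO libraries and 170, 411 and 330 across the MI4OE ones. Its log2 fold change was -0.49 ± 0.33 (SE). Phkg1, the catalytic gamma subunit of muscle, read 574, 508 and 463 CPM across the MI4KO libraries and 275, 538 and 457 across the MI4OE ones. Its log2 fold change was -0.28 ± 0.27 (SE). Both pairs of groups overlapped, and in both genes MI4OE replicate 1 was the lowest library, at 45.8% of the mean of the other MI4OE libraries for Phkb and at 55.2% for Phkg1. Without that library the log2 fold changes were -0.21 for Phkb and -0.05 for Phkg1, and without MI4OE replicate 2 they were -0.77 and -0.50. Phkg1 also had fractional counts, with no single gene found to share its reads.

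The liver and widely expressed counterparts were scarce. Phka2 was between 4.05 and 5.43 CPM, with a log2 fold change of -0.02 ± 0.20 (SE). Phkg2 was between 5.55 and 8.02 CPM, with a log2 fold change of 0.01 ± 0.21 (SE). Phka1 made up between 98.1% and 99.5% of the TPM of both alpha genes, and Phkg1 between 95.8% and 98.4% of the TPM of both gamma genes. Their mean shares differed by -0.51 and -0.70 percentage points in MI4OE against MI4KO (exact permutation p = 0.2 and 0.6, adjusted p = 0.60 and 0.72), in the design that cannot go below 0.1.

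Of the 9 members, 6 were lowest in MI4OE replicate 1, namely Pygm, Pygl, Phka1, Phkb, Phkg1 and Gyg. The same library was lowest in 30.4% of all genes tested and in 41.1% of those with a mean of at least 10 CPM. Its level against the mean of the other MI4OE libraries was 53.0% for Pygm, 85.5% for Gyg and 171.3% for Gbe1. The summed fast-fibre genes were lowest and the summed slow-fibre genes highest in this library, as given above. Of the 10 fast-fibre genes 6 were lowest there, whereas Myh1, a fast myosin heavy chain, was at its highest, 10167 CPM against 566 to 5964 CPM in the others. Expressed per 1000 CPM of the summed fast-fibre genes, a scale chosen after the values were seen, Pygm was at 44.1, 48.6 and 44.3 in MI4KO and at 35.4, 44.6 and 41.0 in MI4OE. The highest value of Pygm was 1.37-fold the lowest on this scale, against 2.47-fold in CPM. The corresponding folds were 1.22 and 2.09 for Phkg1, 1.84 and 2.83 for Phkb, and 2.22 and 3.59 for Phka1. The range was narrower on this scale for these 4 members and wider for the other 5, at 1.43 against 1.39 in CPM for Gyg, 2.12 against 1.17 for Gys1, 3.33 against 2.07 for Gbe1, 4.50 against 2.83 for Pygb and 8.88 against 7.25 for Pygl. The part of fibre type in these differences was not tested.

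**Figure D3:**
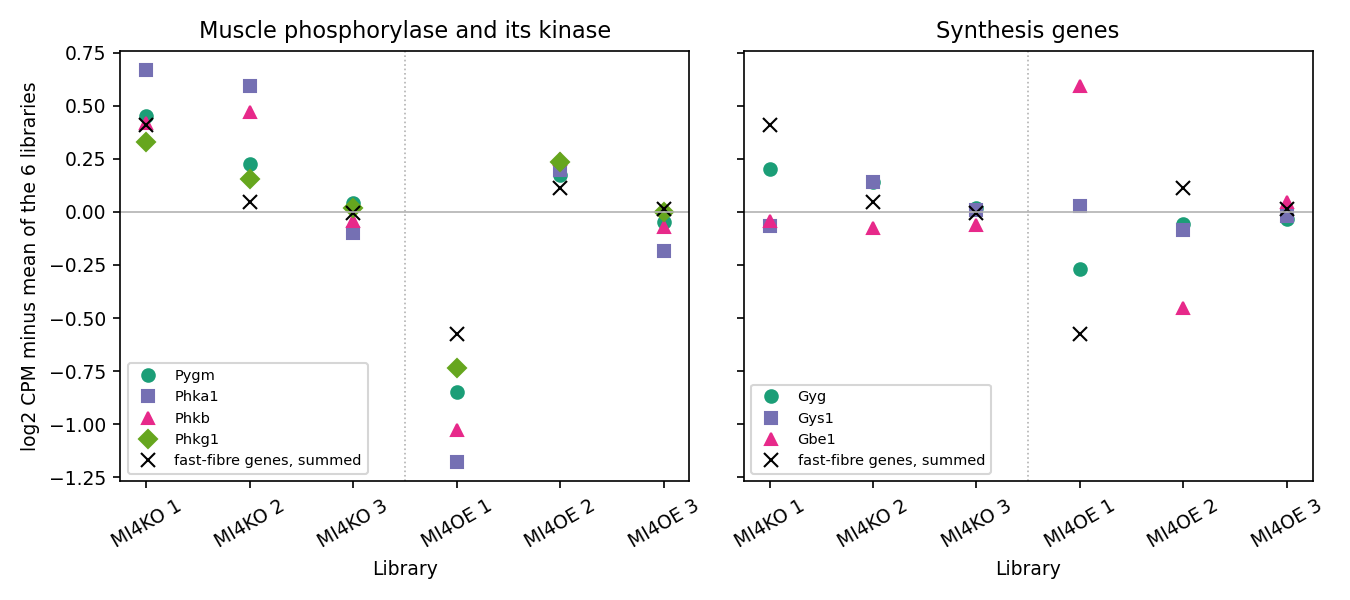
Log2 CPM minus the gene's mean over the 6 libraries, for Pygm and the phosphorylase kinase genes (left) and for the synthesis genes (right), with the summed fast-fibre genes as crosses in both panels. Pygm, Phka1, Phkb and Phkg1 lie with the crosses at their lowest in MI4OE replicate 1, whereas Gys1 stays near 0 and Gbe1 is at its highest there.

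The ratio of breakdown to synthesis transcripts followed the same library. Pygm over Gys1 in TPM was 45.1, 33.4 and 32.3 in MI4KO and 17.1, 37.7 and 30.8 in MI4OE, so the groups overlapped and MI4OE replicate 1 was lowest. Its highest value was 2.64-fold its lowest. Pygm over Phkg1 was 18.8, 18.2 and 17.6 in MI4KO and 16.0, 16.6 and 16.7 in MI4OE, without overlap and with a 1.18-fold range. Pygm over Phkb was between 38.7 and 51.9. Phka1 over Phkb was between 1.49 and 1.93. These were among 9 ratios formed after the values were seen, and they are given as a description.

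The Phka1 transcripts differed in range, mainly through MI4OE replicate 1. NM_008832, which holds the exon printed above, read 178, 277 and 119 TPM across the MI4KO libraries and 22.1, 206 and 99.1 across the MI4OE ones, a 12.5-fold range. NM_173021, which lacks it, read 81.4, 63.4 and 63.0 TPM across the MI4KO libraries and 60.0, 39.6 and 85.6 across the MI4OE ones, a 2.16-fold range. In MI4OE replicate 1 the transcript with the exon was at its lowest, whereas the other lay within its range in the remaining libraries. Without MI4OE replicate 1 the ranges were 2.79-fold with the exon and 2.16-fold without it.

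The share of Phka1 transcripts with the exon was 68.6%, 81.35% and 65.43% in MI4KO and 26.89%, 83.89% and 53.65% in MI4OE. The MI4OE libraries spanned the MI4KO range on both sides. The means were 71.8% ± 8.43 (SD, n = 3) and 54.8% ± 28.5 (SD, n = 3), a difference of -17.0 percentage points (exact permutation test, two-sided p = 0.5). The difference was -3.02 percentage points when MI4OE replicate 1 was left out and -31.5 when MI4OE replicate 2 was. The lowest shares, in MI4OE replicates 1 and 3, were in the libraries with the highest summed slow-fibre genes, 7387 and 712 CPM. Among the other 4 libraries the shares did not follow those sums. MI4KO replicate 2 had the highest sum of the 4, 144 CPM, with a share of 81.35%, and MI4KO replicate 1 had the lowest, 41.5 CPM, with 68.6%. The sum was 120 CPM in MI4KO replicate 3 and 55.3 CPM in MI4OE replicate 2. Myh7, the slow myosin heavy chain, reached 1603 CPM in MI4OE replicate 1, 162 CPM in MI4OE replicate 3 and 20.5 CPM or less in the rest. The shorter form is known as alpha′ from slow muscle and heart. The exon makes up 2.90% of the longer transcript, so the division of short reads between the 2 transcripts is an estimate, and the part of fibre type in it was not tested.

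**Figure D4:**
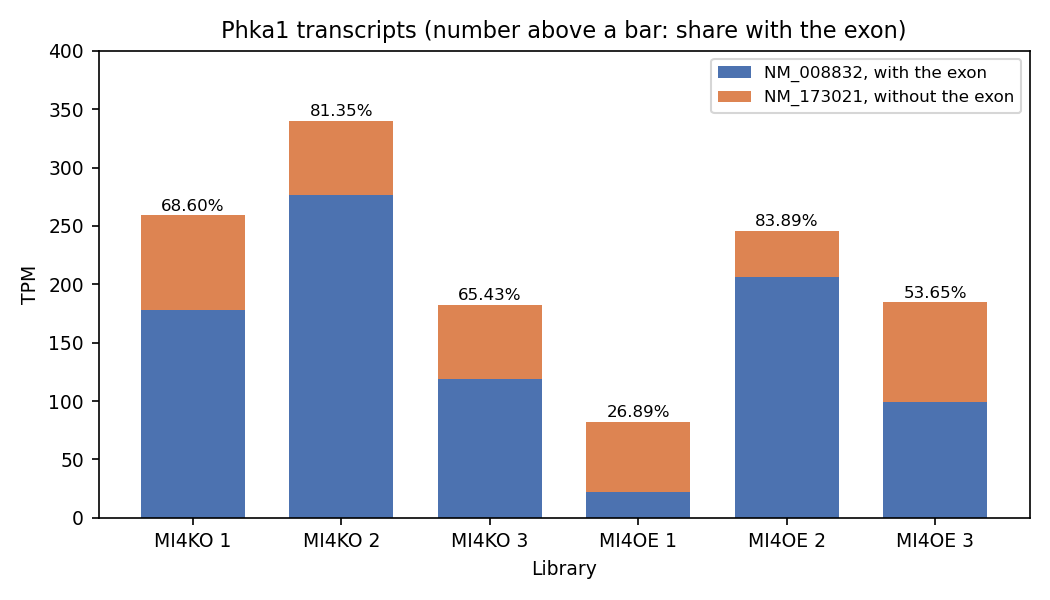
TPM of the 2 Phka1 transcripts stacked by library, with the share of the transcript that holds the exon printed above each bar. The part with the exon ranges from 22.1 TPM in MI4OE replicate 1 to 277 TPM in MI4KO replicate 2, while the part without it stays between 39.6 and 85.6 TPM.

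The genes whose pattern over the 6 libraries was most like that of Pygm were named by the root mean square difference of log2 CPM, each gene centred on its own mean, among 6404 other genes. They were Pgm2 at 0.038, Eef2k at 0.043 and Slc37a4 at 0.052. Pgm2, a phosphoglucomutase, read 2064, 1688 and 1464 CPM across the MI4KO libraries and 778, 1584 and 1350 across the MI4OE ones, the same order of libraries as Pygm. Among the members, Phkg1 was 19th in likeness to Pygm at 0.083 and Phkb 90th at 0.133, whereas Phka1 had rank 709 at 0.233, Gyg rank 1162, Gys1 rank 3454 and Gbe1 rank 5527. The genes most like Gys1 were Aggf1 at 0.030, Polr1a at 0.031 and Glud1 at 0.032, all nearly even in CPM. The 6 libraries set these patterns, and MI4OE replicate 1 was the lowest for each of the 3 genes most like Pygm.

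Beyond the 9 members, 30 other genes of glycogen metabolism were listed, and 28 of them passed the filter. None of the 28 had an adjusted p under 0.05, against 0.0237% of all genes tested. Of the 28, 7 had a log2 fold change above 0 and 21 below 0, where 50% of all genes were below 0. The median of the 28 was -0.10. At the study's criterion 1 was higher, against 4.37% of genes, and 1 was lower, against 2.28%. These shares come from the fit made here. The study itself reports more genes lower than higher in MI4OE at that criterion, the opposite balance. MI4OE replicate 1 was the lowest library for 16 of the 28. It was the lowest for 30.4% of all genes tested and for 41.1% of those with a mean of at least 10 CPM.

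Ppp1r3c, which encodes the targeting subunit that brings protein phosphatase 1 to glycogen, was the lower one, at -1.89 on the log2 scale (edgeR adjusted p = 0.512). It read 1434, 627 and 347 CPM across the MI4KO libraries and 145, 258 and 249 across the MI4OE ones. The groups did not overlap, as in 5.48% of genes in that direction, and MI4KO spanned a 4.14-fold range. The study also reports qPCR and western blots of it against flox and wild-type muscle, which have no counterpart here. Pgm5, a relative of phosphoglucomutase known from cell adhesions in muscle, was the higher one. It read 7.29, 10.5 and 15.8 CPM across the MI4KO libraries and 29.7, 12.9 and 20.7 across the MI4OE ones, or 0.91 on the log2 scale (edgeR adjusted p = 0.626).

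Several other listed genes had small fitted differences. Ugp2, which makes UDP-glucose, was between 309 and 421 CPM with a log2 fold change of -0.08 ± 0.19 (SE). Hk2, a muscle hexokinase, had -0.05 ± 0.23, and Slc2a4, the insulin-responsive glucose transporter GLUT4, had -0.06 ± 0.19. Gsk3a and Gsk3b, kinases that act on glycogen synthase, had -0.08 and -0.03. In edgeR each of these had an adjusted p of 0.940 or more.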

How the data were processed

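RNA from gastrocnemius of 3 MI4KO and 3 MI4OE mice was made into stranded, mRNA-enriched libraries and sequenced as short single reads. The labels and the methods of the study state that the authors processed reads with bcl2fastq 2.17, Bowtie2 2.1.0 and RSEM 1.2.15 against a UCSC transcript set whose build was not given in the sources used here. Expected counts, as deposited, are not normalized and can be fractions. The deposited TPM values are per transcript length, and the deposited percent values (IsoPct) give each transcript's share of its gene. RSEM divides reads that match several transcripts. The authors' comparison tables, with fold changes, p-values, false discovery rates and 12 library columns, were not used.

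Expected counts were rounded, and edgeR 4.0.16 (R 4.3.3) was run on them (TMM factors, filterByExpr with a minimum count of 10 and a minimum total of 15, quasi-likelihood test, Benjamini-Hochberg adjustment over 12660 genes). CPM values use TMM-scaled library sizes, and intervals are at 95%. Shares and isozyme order were tested with exact permutation tests in Python 3.11.15. The fit was tested on simulated data of 12425 genes. There 89 of 107 true 4-fold changes, 10 of 90 true 2-fold changes and 4 genes without a change were called. Its intervals covered 95.48% of true values. The simulated counts were drawn from the spread fitted to these data, independently for each gene and library. A library apart in many genes at once, such as MI4OE replicate 1, was not simulated, so this coverage does not extend to that case. Floors cover counting error only.

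Groups came from the genotype label. The named genes were the 9 members, Irf4, 30 other glycogen genes, the 3 genes most like Pygm and Gys1 in pattern, and single genes of the fast-fibre, slow-fibre, adipocyte and neutrophil marker lists as values beside a member. Some of the other glycogen genes are not reported here by name. The members and lists were chosen with earlier results of these data known. Alternatives were DESeq2 1.42.0, edgeR's exact test, limma 3.58.1 on log2(TPM + 1) and log2(TPM + 0.1), other scalings and filters, and fits without each library.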

Additional observations from a re-analysis of the deposited data

How the results depend on the processing

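None of the 9 members passed an adjusted p of 0.05 under any of the 15 alternatives, and the lowest adjusted p of a member was 0.134, for Pygl. Gyg, Pygm, Pygl, Phka1, Phkb and Phkg1 had a log2 fold change below 0 under all 15. Gys1 turned to 0.0113 with limma on log2(TPM + 0.1), to 0.0111 on log2(TPM + 1) and to 0.0319 with total counts, and Pygb to 0.132, 0.0593 and 0.0401. Without each library in turn Pygb ran from -0.31 to 0.50 and Gbe1 from -0.13 to 0.40. The members at the study's criterion numbered 0 with both limma fits and 0 to 2 without each library. The 2 were Pygl and Phka1, without MI4OE replicate 2. The median of the members ran from -0.50 to -0.19. Over all genes, those at an adjusted p under 0.05 numbered 3, against 111 with DESeq2, 108 with edgeR's exact test, 5 with limma on log2(TPM + 0.1) and 1 (without MI4KO replicate 1) to 4 without each library. Those at the study's criterion numbered 842, against 455 with limma on log2(TPM + 1) and 590 to 1314 (without MI4OE replicate 2) without each library. The cause was not tested. The median of all genes moved to at most 0.09, with total counts. Among the members, the scarce Pygl and Pygb had the largest standard errors, 0.63 and 0.41. No paired analysis was possible because the labels carry no shared replicate numbers.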
